A study of Mus musculus with 72 samples.

Results

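Reporter genes that had landed almost on top of each other in the genome, yet differed sharply in output, were collected from 6 pools of mouse embryonic stem cells. Each integration was given an expression level, the mean over 2 replicates of log2 RNA reads per DNA read, scaled to the pool's totals and set to 0 at the pool's median, with 0.5 read added to the RNA count. On chromosomes 1 to 19, integrations with at least 200 DNA reads over both replicates were paired when they lay 2 to 5000 bp apart, within a pool or across pools. A pair was called sharply different when its levels differed by at least 4 log2 units, or 16-fold with the 0.5 read added. Of 1905 such close pairs, 166 were sharply different, or 8.71% of them, and 1739 were not. The 166 pairs held 314 integrations, out of 3067 in any close pair and 17857 listed in all. Because the levels chose the pairs, the levels and gaps below are a description and carry no test.

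All pools were made in EBRTcH3, a mouse embryonic stem cell line whose ROSA26 locus expresses a tetracycline-controlled transactivator. The reporter was driven by the mouse phosphoglycerate kinase (mPGK) promoter, carried by the piggyBac transposon and tagged with a random barcode. Cells were kept with leukemia inhibitory factor and the inhibitors PD0325901 (of MEK) and CHIR99021 (of GSK-3). Those sorted for low eGFP were grown into pools named mPGK-A to mPGK-F, and each pool was split into 2 cultures that served as technical replicates. All pools carried the same construct and no pool was an untreated control, so the comparison was between pairs of integrations and not between treatments. Per pool and replicate, the listed barcodes held 2880244 to 3508366 RNA reads and 3386477 to 3693449 DNA reads.

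A transgene's output depends on where it lands, which is known as a position effect. Chromatin that is open and active tends to permit transcription, and heterochromatin tends to silence it. In this assay, many reporters integrated in parallel (TRIP), the barcode is read in RNA to measure output, in DNA to measure how many cells carry that integration, and next to genomic sequence to find its place. PiggyBac inserts at TTAA, a palindrome, so a reporter can enter the same site in either orientation. The PGK promoter belongs to a housekeeping gene of glycolysis and is active in most cell types.

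The barcode is the only sequence by which members of a pair are told apart in the RNA and DNA libraries. The barcodes of 4 pairs are printed as listed, with G and C in capitals, to show how far such neighbours differ in sequence: the pair with the largest gap, the largest gap with RNA reads in both members, the second largest of that kind and the pair with the shortest distance.
Chromosome 1, position 75592666, higher: CttCGGattGtaCtta
Chromosome 1, position 75591906, lower: CtaaaaCCCttGGaCt
Chromosome 10, position 21711853, higher: aaCtaGtaGaGGCaaa
Chromosome 10, position 21715184, lower: aCCCCGGCaaaGaata
Chromosome 14, position 70606815, higher: CaaCattCGCCCaCGa
Chromosome 14, position 70606164, lower: tatCaCtGtGatatat
Chromosome 17, position 47275873, higher: CaGGaCCGGtatttat
Chromosome 17, position 47275813, lower: CCttCCCCttCaGGGa
Members of a sharply different pair differed at 7 to 16 barcode positions, with a median of 12, and at 6 to 16 positions, also with a median of 12, in the other close pairs. Positions are on mouse build mm9, the build in the submitters' processing notes, and were not annotated with genes, since no mm9 annotation was used here.

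The largest gap lay on chromosome 1, where 760 bp separated a plus-strand integration of mPGK-E from a minus-strand integration of mPGK-D. The higher member had 809 and 1030 RNA reads and 3045 and 3491 DNA reads in replicates 1 and 2. The lower member had 0 RNA reads in both replicates on 10303 and 10132 DNA reads. The lower member was thus the more abundant integration in DNA and the silent one in RNA. A count of 0 was taken to allow up to 3 reads over both replicates. By that limit the higher member's RNA per DNA, each relative to its pool's median, was at least 1717-fold higher. The higher member itself sat just below its pool's median, at a level of -0.29.

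The second largest gap lay on chromosome 17, with members 1690 bp apart at 7444941 and 7446631. The higher member, on the minus strand in mPGK-B, had 884 and 1527 RNA reads on 905 and 769 DNA reads. The lower member, on the plus strand in mPGK-E, had 0 RNA reads in both replicates on 406 and 473 DNA reads. By the same limit of 3 reads the levels differed at least 379.9-fold. Both replicates of the higher member stood clear of the silent neighbour.

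On chromosome 10, members at 21711853 and 21715184, 3331 bp apart and both on the plus strand, showed the largest gap in which both had RNA reads. The higher member, in mPGK-B, had 3018 and 3634 RNA reads on 1176 and 884 DNA reads. The lower member, in mPGK-F, had 7 and 4 RNA reads on 1168 and 844 DNA reads. DNA counts of the members were thus nearly equal in each replicate, and RNA per DNA relative to the pools' medians differed 576-fold.

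On chromosome 14, 651 bp separated a higher member on the minus strand in mPGK-A from a lower member on the plus strand in mPGK-C. The higher member had 1491 and 1304 RNA reads on 277 and 381 DNA reads. The lower member had 12 and 10 RNA reads on 991 and 1385 DNA reads, a 465-fold difference. The gap was almost the same in both cultures, 8.87 log2 units in replicate 1 and 8.86 in replicate 2.

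The 12 pairs with the largest gaps, 7.87 to 12.33 log2 units, lay 124 to 4737 bp apart. In 7 of them the lower member had 0 RNA reads in both replicates, so the size of those gaps depends on the 0.5 read added. The lower members of the chromosome 10 pair at 62605834 and the chromosome 11 pair at 88200289 had 0 RNA reads in replicate 1 alone. Their replicate 1 gaps depend on the 0.5 read added too. In 10 of the 12 the higher member lay above its pool's median, and all 12 lower members lay at -5.21 or below. Members came from different pools in 11 of the 12 and lay on opposite strands in 11. Among all 1905 close pairs, 1602 joined different pools and 974 lay on opposite strands. The 12 were picked by their gaps, and nothing is read from these counts. In the chromosome 10 pair at 62605834 and 62606560 the replicates differed most among the 12. Its lower member had 0 and 22 RNA reads on 589 and 544 DNA reads, and the gap was 10.83 in replicate 1 and 5.83 in replicate 2.

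Over all 166 sharply different pairs the gap had a median of 4.88 log2 units, against 1.26 in the 1739 other close pairs. The higher member's level had a median of 2.16 in sharply different pairs and 1.68 in the others. The lower member's level had a median of -3.02 in sharply different pairs and 0.18 in the others. By these medians the higher members of both kinds of pair were closer together in level than the lower members. The gap that chose the pairs bears on these levels and on the shares that follow, and nothing is read from them. The lower member lay below -4 in 59 sharply different pairs (35.5%) and in 41 other pairs (2.36%). The higher member lay above 4 in 20 of 166 sharply different pairs and in 159 of 1739 other pairs. Members stood on opposite sides of their pools' medians in 129 sharply different pairs (77.7%) and in 499 other pairs (28.7%). Of the remaining sharply different pairs, 22 had both members below and 15 had both members above.

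**Figure D1:**
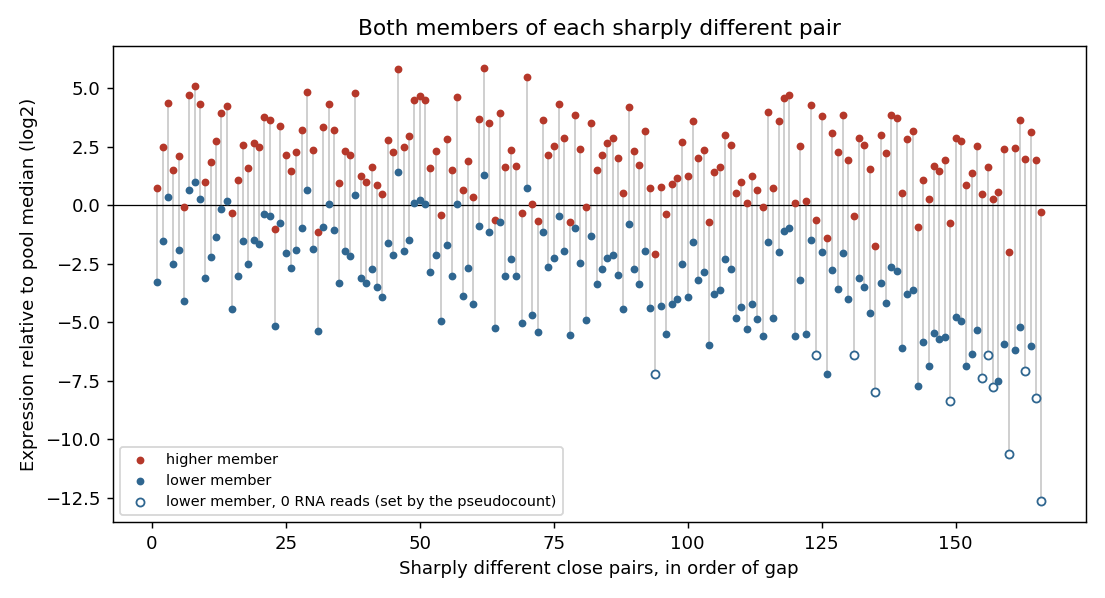
Expression level (log2 RNA per DNA relative to the pool median) of the higher and the lower member of each sharply different pair. The other close pairs are not shown. Where a lower member had no RNA read in a replicate, its level depends on the fraction of a read added. The lower members of sharply different pairs reach down to -12.62, and the higher members lie between -2.10 and 5.88.

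Read counts described the same pairs. The lower member had a median of 85 RNA reads over both replicates in sharply different pairs and 674 in the others. The higher member had a median of 2565.5 RNA reads in sharply different pairs and 1763 in the others. Median DNA reads in sharply different pairs were 1727.5 for the higher member and 1952 for the lower. The lower member had the more DNA reads in 90 sharply different pairs (54.2%) and in 889 of the others (51.1%). In 12 sharply different pairs (7.23%) and 1 other pair the lower member had no RNA read, and those 12 differed by at least 11.7-fold to at least 1717-fold. In the 154 sharply different pairs with RNA reads in both members, the fold difference had a median of 28.1 and a maximum of 576. Some of their lower members had no RNA read in 1 replicate, and those folds depend on the fraction of a read added. On chromosome 5, at 75111972 and 75107182, the lower member had 0 and 24 RNA reads, and the fold was 18.8. Reads amplified by PCR are no count of separate molecules, and the limits given for the 12 pairs cover counting error only.

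The direction of the gap was the same in both replicates in all 166 sharply different pairs. Both replicates gave a gap of at least 3 in 157 pairs (94.6%) and of at least 4 in 109. The smaller of the replicate gaps had a median of 4.26. All 75 pairs whose lower member had at least 100 RNA reads gave at least 3.20 in both replicates, whereas 82 of the 91 pairs with fewer reads gave at least 3. The replicates were least alike on chromosome 5, at 75111972 and 75107182, both in mPGK-C. There the higher member had 53 and 41 RNA reads on 301 and 282 DNA reads, and the lower had 0 and 24 RNA reads on 358 and 463 DNA reads. The gap was 6.99 in replicate 1 and 1.48 in replicate 2. The median difference between replicates in sharply different pairs was 0.39 log2 units for the higher member and 0.69 for the lower.

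Pairs were also chosen on a single replicate and read in the other, with each replicate set to 0 at its own pool median. That centring differs from the one above, so the counts at 4 in both replicates differ slightly. Of 170 pairs with a gap of at least 4 in replicate 1, 167 had the same direction in replicate 2, 158 reached 2 and 105 reached 4 there (61.8%). Among all close pairs, 9.13% reached 4 in replicate 2. The 170 pairs chosen on replicate 1 had a median gap of 4.97 in replicate 1 and 4.48 in replicate 2. Of 174 pairs chosen on replicate 2, 172 had the same direction in replicate 1, 165 reached 2 and 105 reached 4 (60.3%), against 8.92% of all close pairs. The replicates were cultures of 1 pool, so these values speak of measurement and not of independent integrations.

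**Figure D2:**
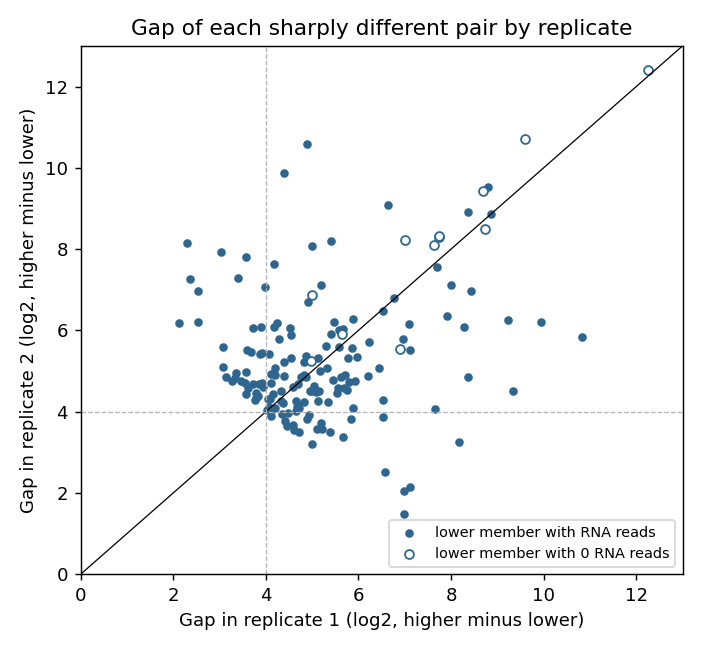
Gap between the members of each sharply different pair in replicate 1 and in replicate 2, in log2 units of RNA per DNA. The other close pairs are not shown. Where the lower member had no RNA read in a replicate, the size of that gap depends on the fraction of a read added. Sharply different pairs keep their direction in both replicates, and 109 of 166 lie at 4 or above in both.

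The shortest distance between members of a sharply different pair was 60 bp, on chromosome 17. The higher member there, on the plus strand in mPGK-E, had 1917 and 2136 RNA reads on 327 and 580 DNA reads. The lower member, on the minus strand in mPGK-D, had 578 and 859 RNA reads on 2658 and 3281 DNA reads, a 17.5-fold difference. Here both members gave at least 578 RNA reads in each replicate. The next shortest, 62 bp on chromosome 14 at 86785426 and 86785488, had 643 and 668 RNA reads in the higher member on 1005 and 911 DNA reads. Its lower member had 9 and 11 RNA reads on 745 and 347 DNA reads, a 35.2-fold difference. Members 77 bp apart on chromosome 6, both on the minus strand, differed 46.8-fold.

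The boundary at 4 log2 units cut through a continuous range. The 3 pairs just inside had gaps of 4.001 on chromosome 5, 4.008 on chromosome 15 and 4.012 on chromosome 14. The 3 just outside had gaps of 3.982 on chromosome 13, 3.976 on chromosome 1 and 3.975 on chromosome 11.

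Members of sharply different pairs lay a median of 1978.5 bp apart, against 1787 bp in the other close pairs. On the log10 scale the distance was greater by 0.045 ± 0.080 (mean of the pools' differences, SD, n = 6), with 5 of 6 pools positive. The exact sign-flip permutation test over pools, two-sided, gave p = 0.1875, or 0.394 adjusted over the 7 comparisons by Benjamini-Hochberg. With 6 pools no p can be below 0.03125. A pair was counted in the pool of its member at the lower position, and 142 of the 166 sharply different pairs joined different pools, so the pools' values were not fully independent. By distance, the share of pairs with a gap of at least 4 was 7.45% at 2 to 500 bp (26 of 349), 9.62% above 500 and up to 1000 bp (25 of 260) and 8.19% from there to 2000 bp. It was 8.71% at 2 to 3 kb, 9.06% in the next 1000 bp and 9.89% at 4 to 5 kb, and the 95% Wilson intervals of these classes overlapped. Farther apart, 11.2% of pairs 5 to 20 kb from each other had such a gap, as did 17.2% of those separated by 100 to 500 kb. On different chromosomes the share was 22.7%.

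**Figure D3:**
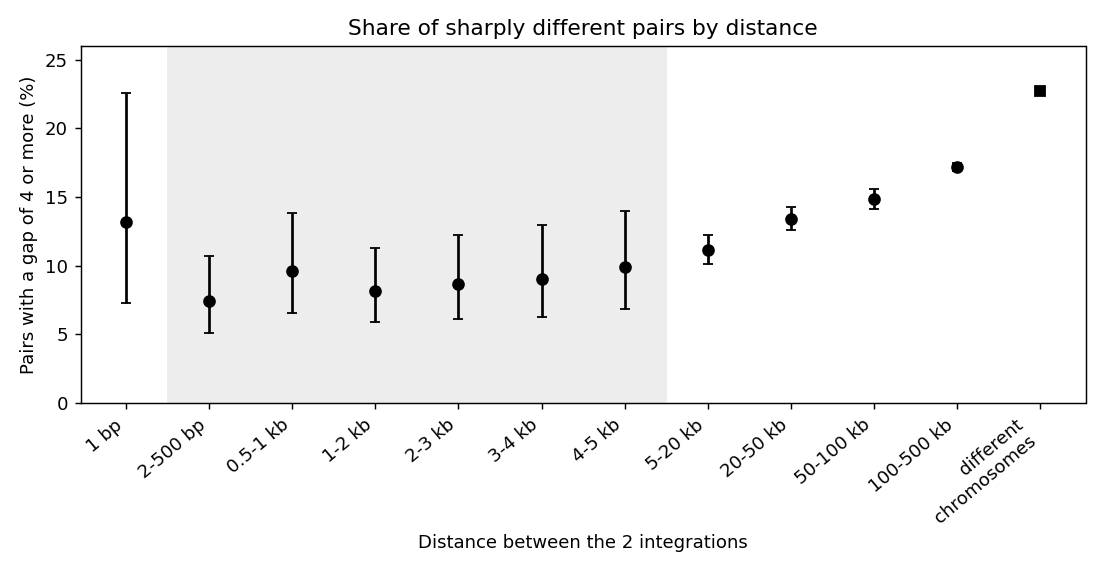
Share of integration pairs with a gap of at least 4 log2 units, in percent, by the distance between the members, with 95% Wilson intervals that cover counting error only. The share is 7.45% at 2 to 500 bp and 22.7% for pairs on different chromosomes.

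Integrations listed 1 bp apart fell outside the 2 bp minimum. There were 76 such pairs, all on opposite strands with the minus-strand member at the lower position. The gap reached 4 in 10 of them (13.2%, Wilson 95% interval 7.31 to 22.6%), and its median was 1.66. The plus-strand member was the higher in 36 and the minus-strand member in 40. On chromosome 11 the plus-strand member at 75964994, in mPGK-E, had a level of 3.79, and the minus-strand member at 75964993, in mPGK-C, had -1.77. The gap of 5.55 was seen in both replicates, as 5.61 and 5.50. The replicates were least alike in the chromosome 14 pair at 46110972 and 46110971, with gaps of 0.69 and 8.79, where the lower member had 24 and 0 RNA reads.

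Members of sharply different pairs lay on the same strand in 66 of 166 pairs (39.8%), against 865 of 1739 other close pairs (49.7%). The pools' differences averaged -9.51 ± 5.08 percentage points (SD, n = 6) and were negative in all 6 pools, between -16.8 and -3.39. Each pool's value rested on 23 (mPGK-E) to 36 (mPGK-D) sharply different pairs. The exact permutation test gave p = 0.03125, the smallest that 6 pools allow, and 0.219 after adjustment over the 7 comparisons, so the difference did not pass the threshold of 0.05. Without mPGK-D it averaged -4.85 percentage points. It also rested on the pool in which a pair was counted: with the pool of the member at the higher position, added after seeing the data, it averaged -9.33 points, was negative in 4 of 6 pools and had an exact permutation p of 0.125. Read the other way, a gap of at least 4 was found in 7.09% of same-strand pairs (66 of 931) and in 10.3% of opposite-strand pairs (100 of 974). Within a single pool the shares were 6.58% for the same strand (10 of 152) and 9.27% for opposite strands (14 of 151). Across pools they were 7.19% for the same strand (56 of 779) and 10.4% for opposite strands (86 of 823). Higher members were on the plus strand in 84 pairs and on the minus strand in 82.

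**Figure D4:**
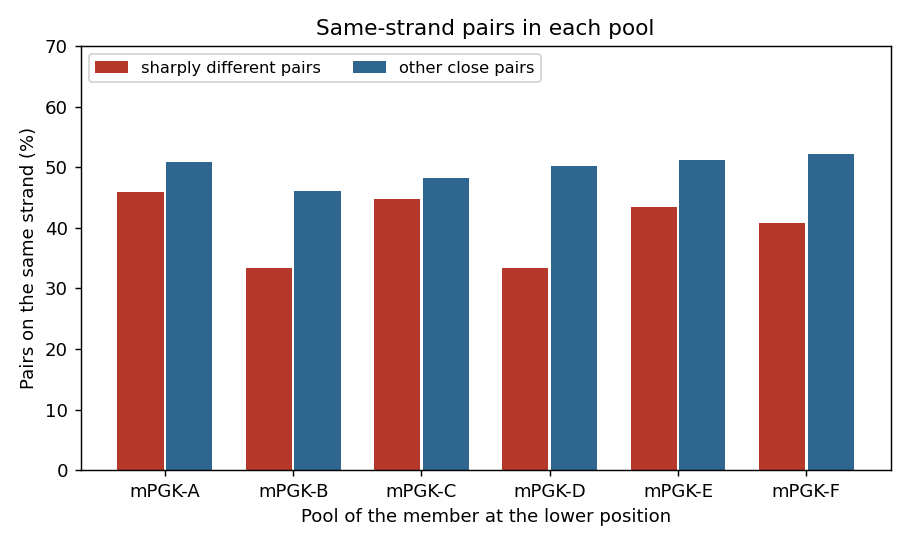
Percent of pairs with both members on the same strand, for sharply different pairs and other close pairs in each of the 6 pools. With each pair counted in the pool of its member at the lower position, the sharply different pairs have the lower percent in every pool, by 3.39 to 16.8 percentage points. Counted by the member at the higher position, they do in 4 of 6.

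The strand comparison was repeated without a threshold, a comparison added after seeing the data and not among the 7 adjusted. Over all 1905 close pairs the median gap was 1.25 log2 units in same-strand pairs and 1.55 in opposite-strand pairs. The pools' differences averaged -0.28 ± 0.14 (SD, n = 6), were negative in all 6 and carry no test, since the gaps chose the sharply different pairs. At 2 to 500 bp the medians were 1.01 for the same strand and 1.51 for opposite strands, and above 500 and up to 1000 bp they were 1.06 for the same strand and 1.66 for opposite strands. Same-strand pairs 2 to 5 kb apart had a median of 1.44, and opposite-strand pairs 1.55. In the range of 50 to 100 kb the same-strand median was 1.75 and the opposite-strand median 1.73. The medians of the strands lay closest together in the widest of these classes.

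**Figure D5:**
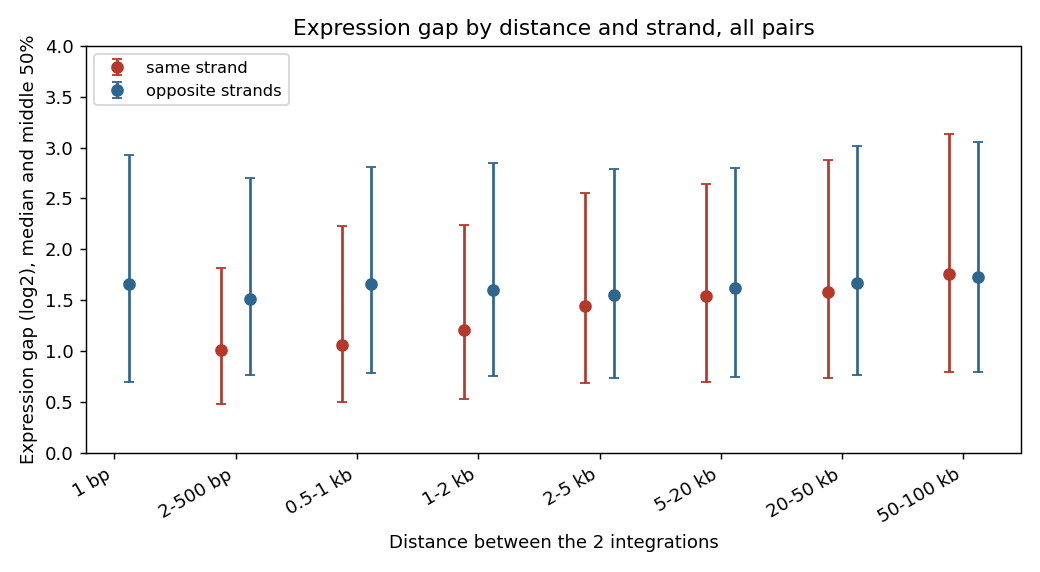
Median expression gap, in log2 units, of same-strand and opposite-strand pairs by the distance between members. The same-strand median is 1.01 and the opposite-strand median 1.51 at 2 to 500 bp, and the values are 1.75 and 1.73 in the range of 50 to 100 kb.

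Surrounding levels were taken from integrations 5 to 50 kb away, and local density counted all other integrations within 100 kb, both without a minimum of DNA reads. Sharply different pairs had a mean of 3.14 other integrations within 100 kb, against 3.39 for the other close pairs, a pool difference of -0.21 ± 0.56 (SD, n = 6; exact permutation p = 0.406, adjusted 0.474). That difference was -0.68 without replicate 2 (exact permutation p = 0.03125, adjusted 0.109) and -0.039 without mPGK-C. The mean level of the surrounding integrations was 0.28 around 116 sharply different pairs and 0.70 around 1204 others. Here the pools' difference was -0.38 ± 0.67 (SD, n = 6; exact permutation p = 0.25, adjusted 0.394), and without mPGK-D it was -0.078. The remaining 50 sharply different pairs had no integration in that range. The spread of the surrounding levels averaged 1.65 log2 units around 25 sharply different pairs and 1.63 around 326 others, while the mean of the pools' differences had the opposite sign, -0.0056 ± 0.23 (SD, n = 6; exact permutation p = 0.906, also after adjustment). In mPGK-B the difference in spread rested on 1 sharply different pair. None of these differences exceeded the spread between pools.

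In the 25 sharply different pairs with at least 3 surrounding integrations, the median level was 3.65 for the higher member, -1.37 for the lower and 1.08 for the surroundings. The mean of the surroundings fell between the members in 21 of these 25 pairs, against 99 of 326 other close pairs. It lay closer to the higher member in 15 of 25 sharply different pairs and in 128 of 326 others. The wide gap that defines the sharply different pairs bears on both counts, and nothing is read from them. On the side of the higher member the surroundings had the higher level in 16 of 38 sharply different pairs with integrations on both sides. In the other close pairs they did in 213 of 404. In sharply different pairs the higher member's side minus the lower member's side averaged -0.93 ± 2.20 over pools (SD, n = 6; exact permutation p = 0.281, adjusted 0.394). It rested on 4 pairs in each of mPGK-B, mPGK-E and mPGK-F. Barcode GC content averaged 41.3% in higher and 42.9% in lower members, a pool difference of -1.52 ± 1.49 percentage points (SD, n = 6; exact permutation p = 0.125, adjusted 0.394). Other close pairs averaged 41.7% in higher and 42.0% in lower members.

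The 166 pairs fell into 148 separate loci, of which 132 held a single pair, 14 held 3 members and 2 held 4. They lay on all 19 autosomes. Without mPGK-D, 102 sharply different pairs were left, 7.90% of the close pairs that remained. At the first locus with 4 members, chromosome 10 from 21547583 to 21550518, levels changed in 1 step along the chromosome. The integrations at 21547583 and 21547670 had levels of 4.32 and 3.65, and those at 21548092 and 21550518 had 0.04 and -0.48. The highest had 30067 and 32978 RNA reads on 4283 and 4966 DNA reads, and the lowest had 55 and 47 RNA reads on 165 and 267 DNA reads.

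At the other locus with 4 members, chromosome 10 from 62346709 to 62352461, levels did not follow the order of positions so simply. The integration at 62346709 had 30 and 62 RNA reads on 1550 and 1667 DNA reads, a level of -3.81. Its neighbour at 62347582 had 6900 and 7315 RNA reads on 3280 and 3270 DNA reads, a level of 2.81. The integration at 62347944 had a level of 1.42, and that at 62352461 had 5.82.

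On chromosome 2 a low integration lay between higher ones. At 92773839 it had 20 and 17 RNA reads on 946 and 1006 DNA reads, a level of -4.22. The integration at 92769665 had 687 and 688 RNA reads on 807 and 805 DNA reads, a level of 1.24, and that at 92777987 had a level of 0.34. On chromosome 1 the order was different: integrations at 36003910 and 36005446 had levels of 4.69 and 4.84, and the last, at 36008012, had 0.64.

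RNA counts were also set against DNA counts for each integration with edgeR's quasi-likelihood test. The test was run within each pool, scaled so that the pool's median ratio was 0, with the 2 technical cultures as its replicates. Of all 17857 integrations, 36.9% were called higher and 33.7% lower at an adjusted p below 0.05. Without that scaling to the median, 32.8% were called higher and 38.3% lower. In 101 of the 166 sharply different pairs the higher member was called higher and the lower member lower. In 28 pairs the higher member alone was called in its direction, in 36 the lower member alone, and in 1 neither. The pairs were chosen on the same contrast, so nothing is read from these counts.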

How the data were processed

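The authors deposited 1 table of barcodes with pool, position, strand and read counts for RNA and DNA in 2 replicates, per the file headers. Per the submitters' processing notes, Bowtie2 2.0 and build mm9 were used. No source used here states the base from which positions count, or how repeat PCRs of a replicate were combined. Reads were raw counts without molecular identifiers.

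Levels, pairs, intervals and permutation tests were computed with Python 3.11.15, pandas 2.3.3 and scipy 1.17.1, with 0.5 RNA read added. Paired integrations had at least 200 DNA reads. Surrounding integrations, 5 to 50 kb away, and those counted for local density had no such minimum. The 7 comparisons used an exact two-sided sign-flip test over pools with Benjamini-Hochberg adjustment. Replicates are technical, so the sign-flip p-values rest on the spread of the pools' values. Since 142 of the 166 sharply different pairs joined different pools, those values were not fully independent. Counts were tested with edgeR 4.0.16, with DESeq2 1.42.0 as an alternative. The edgeR and sign-flip tests were tested on simulated data. The labels make same-numbered RNA and DNA libraries 1 culture; their deviations correlated between -0.00213 and 0.0575.

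Members and lists were chosen with earlier results of these data known. The text names the 12 largest gaps, the 3 shortest distances, 3 pairs on each side of the threshold and 4 loci. The strand comparison without a threshold, the pool of the member at the higher position and a minimum of 10 RNA reads were added after seeing the data.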

Additional observations from a re-analysis of the deposited data

How the results depend on the processing

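The count of 166 sharply different pairs (8.71% of close pairs) moved to 348 with a gap of 3 (18.3%), 78 with a gap of 5 (4.09%) and 84 within 2000 bp (8.30%); 105 of those chosen on either replicate reached 4 in the other. Leaving out 1 pool gave 102 (without mPGK-D, 7.90%) to 120, and using a single replicate gave 170 without replicate 2 and 174 without replicate 1. The count was 138 (7.24% of close pairs) with 5 RNA reads added and 145 (8.44%) without barcodes found in several pools. Among close pairs with at least 10 RNA reads in both members it was 148 (7.87% of such pairs). The same-strand difference kept its direction in all 17 alternatives, between -15.1 and -4.85 percentage points, the smallest without mPGK-D, with adjusted p from 0.109 to 0.6125; with the pool of the member at the higher position it was -9.33 (exact permutation p = 0.125) and with at least 10 RNA reads -9.42. The difference in median gap between strands moved to -0.48 within 2000 bp and ran from -0.34 to -0.25 elsewhere. Local density was -0.77 with a gap of 5 and -0.68 without replicate 2 (each exact permutation p = 0.03125, adjusted 0.219 and 0.109), and -0.039 without mPGK-C. Surrounding spread turned positive with a gap of 3 (0.099) or 5 (0.11), with 400 DNA reads (0.032), without replicate 1 (0.21) and within 100 kb (0.039); leaving out 1 replicate or pool gave -0.21 to 0.21. Surrounding expression turned positive within 100 kb (0.048) and was -0.078 without mPGK-D. Barcode GC turned positive with a gap of 5 (0.12) and ran from -2.73 to 0.19 without 1 pool, positive without mPGK-E. With each integration used once, barcode GC was -2.27 (exact permutation p = 0.03125, adjusted 0.109). The side difference turned positive within 20 kb (0.82) and ran from -2.01 to 0.65 without 1 pool, positive without mPGK-A. The causes were not tested. Surrounding spread within 20 kb left too few pools for a value. With the replicate block, edgeR called both members in 99 pairs, against 101 without it, and it changed no other call count by 1.5 times. With 5 RNA reads added, the 12 largest gaps ran from 4.59 to 9.02. Low RNA counts of lower members limit the size of the largest gaps.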
